A study of Homo sapiens with 20 samples.

Results

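The circadian clock genes are described here in LNCaP cells, a human prostate adenocarcinoma line, across 10 conditions of an EHMT1 experiment measured by RNA-seq. EHMT1 is a histone lysine methyltransferase. The 10 genes are PER1, PER2, PER3, CRY1, CRY2, NR1D1, NR1D2, DBP, TEF and ARNTL, taken by gene symbol from 57773 genes counted, and all 10 were found in both count tables. The members were selected on measured values, namely the lower PER1 count with doxycycline in every line. The difference between cells with and without doxycycline is therefore given for the 10 genes as a description and without a test. Of the doxycycline values, only a difference between lines in the size of the effect was tested, for the 9 genes other than PER1.

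In the first experiment, LNCaP cells received 20 nM of a nontarget siRNA (siNTC) or of an siRNA against EHMT1 (siEHMT1) for 2 days, with 2 samples in each group. In the second, 4 stable LNCaP lines carried a tetracycline-inducible lentiviral EHMT1 with a V5 tag, either wild type (WT) or with arginine in place of lysine 450 (K450R), of the lysine next to it (K451R) or of both (K450RK451R). Each line was analysed without doxycycline (Veh, which the treatment label calls untreated) and with 0.25 µg/mL of doxycycline for 2 days (Dox). The lines were selected with puromycin and also express EHMT1 without doxycycline. A line without the EHMT1 insert was not analysed here, so doxycycline itself and the EHMT1 it switches on cannot be told apart. Each of the 8 stable-line conditions has 2 columns, labelled as replicates 1 and 2. They differed by no more than counting noise (chi-square per degree of freedom 0.995 to 1.02), and were summed and counted as 1 library. The same value between the 2 samples of an siRNA group was 61.6 for siNTC and 13.4 for siEHMT1. Those samples thus differed by more than counting noise and were kept apart. Levels are in CPM, the read count scaled to a common library size with the TMM correction for library composition.

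The siRNA samples held 5593400 to 12438006 counted reads each, and the summed libraries 8436791 to 12407739. EHMT1 was at 87.8 and 83.6 CPM in the siNTC samples and at 29.2 and 30.7 CPM in the siEHMT1 samples. In the stable lines it was at 71.7 to 88.9 CPM with Veh and at 663 to 842 CPM with Dox, where the count cannot separate the insert from the cells' own gene. All 9 markers of luminal prostate and LNCaP cells were at 10 CPM or more in every library, and 10 of 14 markers of fibroblasts, leukocytes and other absent cell types were at 3 counts or fewer in every library. Among the other 4, the fibroblast marker COL1A1 was at 15.3 to 40.8 CPM and the endothelial marker VWF at 3.35 to 15.97 CPM, and their part in the results was not tested.

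In most cells the clock is a feedback loop of transcription. ARNTL (BMAL1) and its partner CLOCK bind E-box sequences and switch on the PER and CRY genes, whose proteins then repress ARNTL and CLOCK. The same pair switches on NR1D1 and NR1D2, the REV-ERB receptors that repress ARNTL, and DBP, a PAR bZIP factor that, like TEF, acts through D-box sequences on output genes. Period genes also respond acutely to glucocorticoids and to cyclic AMP signalling. Cells in an unsynchronized culture run out of phase with each other, so a bulk level is an average over phases.

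The promoters of PER1, NR1D1 and NR1D2 are shown as examples that hold E-box letters or their variant. Not every clock gene has them, and the window of DBP held none of the motifs searched. The stretches are the 250 bases before a RefSeq start, on the strand of the gene. NR1D2 has 2 listed starts, and the window of the other one holds none of the motifs searched. The coordinates are those of GRCh38.p14. Capitals mark the E-box CACGTG in PER1 (chr17:8152405-8152654, minus strand), its variant CACGTT read on the other strand in NR1D1 (chr17:40100590-40100839, minus strand), and both CACGTG and the D-box TTATGTAA read on the other strand in NR1D2 (chr3:23945871-23946120, plus strand).
PER1: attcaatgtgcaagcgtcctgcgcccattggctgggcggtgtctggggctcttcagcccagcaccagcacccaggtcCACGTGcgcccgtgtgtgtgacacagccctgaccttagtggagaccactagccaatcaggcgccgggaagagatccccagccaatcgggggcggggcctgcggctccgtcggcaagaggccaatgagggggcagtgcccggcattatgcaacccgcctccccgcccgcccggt
NR1D1: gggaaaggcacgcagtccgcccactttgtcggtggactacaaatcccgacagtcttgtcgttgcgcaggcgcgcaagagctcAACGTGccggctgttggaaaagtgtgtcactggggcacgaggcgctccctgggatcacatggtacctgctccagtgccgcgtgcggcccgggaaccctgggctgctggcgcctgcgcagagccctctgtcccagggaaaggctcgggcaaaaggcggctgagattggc
NR1D2: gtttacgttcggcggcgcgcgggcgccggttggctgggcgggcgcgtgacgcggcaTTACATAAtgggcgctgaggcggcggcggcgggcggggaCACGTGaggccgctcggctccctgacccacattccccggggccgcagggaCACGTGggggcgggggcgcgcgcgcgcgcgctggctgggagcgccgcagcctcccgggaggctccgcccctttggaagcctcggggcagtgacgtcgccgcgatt
The E-box of PER1 began 173 bases before the start, the variant of NR1D1 168 bases before it, and those of NR1D2 155 and 105 bases before it. Each motif was searched on both strands in 15 windows of the 10 genes, which run from 250 bases before to 50 bases after a start. CACGTG was found in 4 of the 15 windows (of PER1, NR1D2 and TEF), against 7.26% of all 35116 promoter windows, and CACGTT in 4 (of PER2, CRY1, CRY2 and NR1D1), against 5.34%. TTATGTAA was found in 1 window each of PER3 and NR1D2 (0.886% of all windows), TTACGTAA in 1 of PER2 (0.125%) and TAGGTCA, the core of the element that ROR and REV-ERB receptors bind, in 1 each of CRY2 and ARNTL (1.85%). The cyclic AMP response element TGACGTCA was in 0 of the 15 windows, against 1.85% of all windows. These matches are letters in a window and do not show that a factor binds there.

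All 10 genes passed the filter on low counts in both experiments. Per kilobase of exon, PER1 had the highest mean level in the 4 Veh libraries, 15.99 ± 3.14 CPM per kb (SD, n = 4 lines), and NR1D2 came next at 15.73 ± 0.698, a gap within the spread. DBP stood at 11.1 ± 1.07 CPM per kb. NR1D1, TEF and CRY2 formed a group at 6.33, 6.25 and 6.23 CPM per kb, whose neighbours did not differ beyond their spread, and PER2, CRY1 and PER3 another at 2.89, 2.49 and 2.19. The activator ARNTL was the lowest of the 10, at 0.976 ± 0.0944 CPM per kb. The exon length used is the union of all annotated exons of a gene, which can exceed the length of its expressed transcript. For DBP it was 6485 bases. The order of the genes therefore depends on the annotation.

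**Figure D1:**
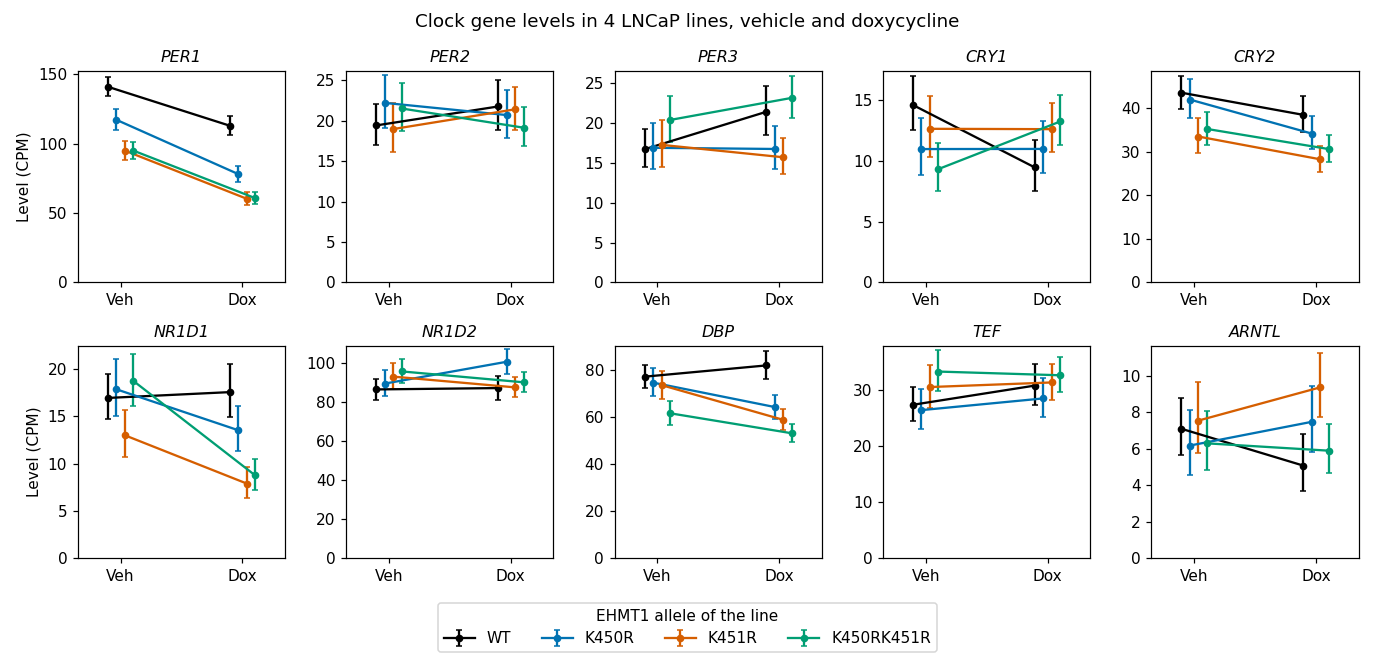
Level of each of the 10 clock genes in CPM (vertical axis) with Veh and Dox (horizontal axis) in the 4 LNCaP lines, 1 summed library per point, with 95% counting intervals. PER1 is lower with Dox in each line, while PER2, PER3, CRY1, NR1D2, TEF and ARNTL are each higher with Dox in some lines and lower in others.

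PER1, a period gene whose protein represses ARNTL and CLOCK, was lower with Dox in each of the 4 lines. The gene (ENSG00000179094) lies at chr17:8043790-8059824 on the minus strand of GRCh37. It stood at 141, 117, 94.9 and 94.9 CPM with Veh in WT, K450R, K451R and K450RK451R, and at 113, 78.1, 60.3 and 60.7 CPM with Dox in the same order. WT was the highest line on either treatment, and its Dox library lay above the Veh libraries of K451R and K450RK451R, so the Veh and Dox ranges overlap across lines but not within any line. The log2 ratio of Dox to Veh was −0.32 in WT (95% counting interval −0.43 to −0.21), −0.59 in K450R (−0.73 to −0.44), −0.65 in K451R (−0.80 to −0.51) and −0.64 in K450RK451R (−0.78 to −0.51). Its mean was −0.55 ± 0.16 (SD, n = 4 lines), and the percent change ran from −19.9% in WT to −36.5% in K451R. These intervals cover counting error only, because each condition is 1 library. In bulk RNA, fewer cells with a transcript and less transcript per cell cannot be told apart. Of all 14105 genes tested in the stable lines, 10.1% were lower with Dox in all 4 lines. PER1 is in that class because it was chosen for it, and nothing is read from its place there.

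The other period genes, unlike PER1, were not lower in all 4 lines. PER2, a paralog and fellow repressor (ENSG00000132326, chr2:239152685-239198743, minus strand, GRCh37), was at 19.4, 22.2, 19.0 and 21.5 CPM with Veh in WT, K450R, K451R and K450RK451R and at 21.8, 20.7, 21.4 and 19.1 CPM with Dox. It was higher in 2 lines and lower in 2, with log2 ratios of −0.17 to 0.17, and all 4 intervals include 0. PER3, the third period gene (ENSG00000049246, chr1:7844351-7905237, plus strand, GRCh37), was at 16.7, 16.9, 17.3 and 20.4 CPM with Veh and at 21.4, 16.7, 15.7 and 23.2 CPM with Dox in the same order of lines. Its WT library was 28.1% higher with Dox (log2 0.36, interval 0.06 to 0.65), and the intervals of the 3 mutant lines include 0.

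Of the cryptochromes, the partners of the period proteins in repression, CRY2 was lower with Dox in all 4 lines and CRY1 was not. CRY2 (ENSG00000121671, chr11:45868669-45904799, plus strand, GRCh37) went from 43.6 to 38.5 CPM in WT, from 42.1 to 34.2 in K450R, from 33.5 to 28.3 in K451R and from 35.3 to 30.7 in K450RK451R. Its log2 ratios of −0.18, −0.30, −0.24 and −0.20 were close to each other, and the intervals of K450R and K451R exclude 0. The Veh and Dox ranges of CRY2 overlap across lines. CRY1 (ENSG00000008405, chr12:107385142-107487327, minus strand, GRCh37) went from 14.6 to 9.47 CPM in WT and from 9.33 to 13.2 CPM in K450RK451R, and was at 11.0 CPM on both treatments in K450R and at 12.6 CPM on both in K451R. The log2 ratio of CRY1 was thus −0.63 in WT (−1.02 to −0.24) and 0.51 in K450RK451R (0.13 to 0.89), in opposite directions.

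The REV-ERB receptors, which repress ARNTL, differed from each other. NR1D1 (ENSG00000126368, chr17:38249046-38256842, minus strand, GRCh37) was at 17.0 CPM with Veh and 17.6 CPM with Dox in WT. In the mutant lines it went from 17.9 to 13.5 CPM in K450R, from 13.0 to 7.89 in K451R and from 18.8 to 8.75 in K450RK451R. The log2 ratio was 0.05 in WT (−0.26 to 0.36), −0.40 in K450R (−0.76 to −0.05), −0.72 in K451R (−1.13 to −0.31) and −1.10 in K450RK451R (−1.45 to −0.75), the lowest of the 40 ratios of a clock gene in a line. The 3 mutant lines were on one side of 0 with intervals that exclude it, and WT was not. NR1D1 overlaps THRA, a thyroid hormone receptor gene on the opposite strand, whose log2 ratios were 0.05 to 0.09 in the 4 lines, each with an interval that includes 0. NR1D2 (ENSG00000174738, chr3:23986777-24022108, plus strand, GRCh37) was at 86.4 to 95.7 CPM with Veh and 87.1 to 101 CPM with Dox, with log2 ratios of −0.09 to 0.17, and only the K450R interval (0.03 to 0.31) excludes 0.

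DBP and TEF, the PAR bZIP output factors, also differed. DBP (ENSG00000105516, chr19:49133287-49140636, minus strand, GRCh37) went from 77.1 to 81.9 CPM in WT, from 74.6 to 64.2 in K450R, from 73.5 to 58.8 in K451R and from 61.6 to 53.1 in K450RK451R. The log2 ratio of DBP was 0.09 in WT (−0.06 to 0.23) and −0.22, −0.32 and −0.21 in the mutant lines, where all 3 intervals exclude 0, so DBP had the same split between lines as NR1D1. DBP overlaps SPHK2, a sphingosine kinase gene on the opposite strand, whose log2 ratios ran the other way: −0.40 in WT and 0.70, 0.39 and 0.39 in the mutants. TEF (ENSG00000167074, chr22:41763337-41795330, plus strand, GRCh37) was at 27.3, 26.4, 30.5 and 33.3 CPM with Veh and 30.8, 28.5, 31.3 and 32.6 CPM with Dox, and all 4 of its intervals include 0.

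ARNTL, the only activator among the 10 (ENSG00000133794, chr11:13298199-13408813, plus strand, GRCh37), was at 7.09, 6.17, 7.54 and 6.29 CPM with Veh and 5.07, 7.47, 9.36 and 5.89 CPM with Dox in WT, K450R, K451R and K450RK451R. It was lower in 2 lines and higher in 2, and all 4 intervals, the widest of the 10 genes, include 0. Of the 9 genes other than PER1, only CRY2 was lower in all 4 lines (10.1% of all genes were). Of the rest, 0 were higher in all 4 (10.7% of all genes were) and the other 8 were mixed. The median log2 difference with Dox was −0.01 over the 10 genes and 0.0050 over all genes.

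**Figure D2:**
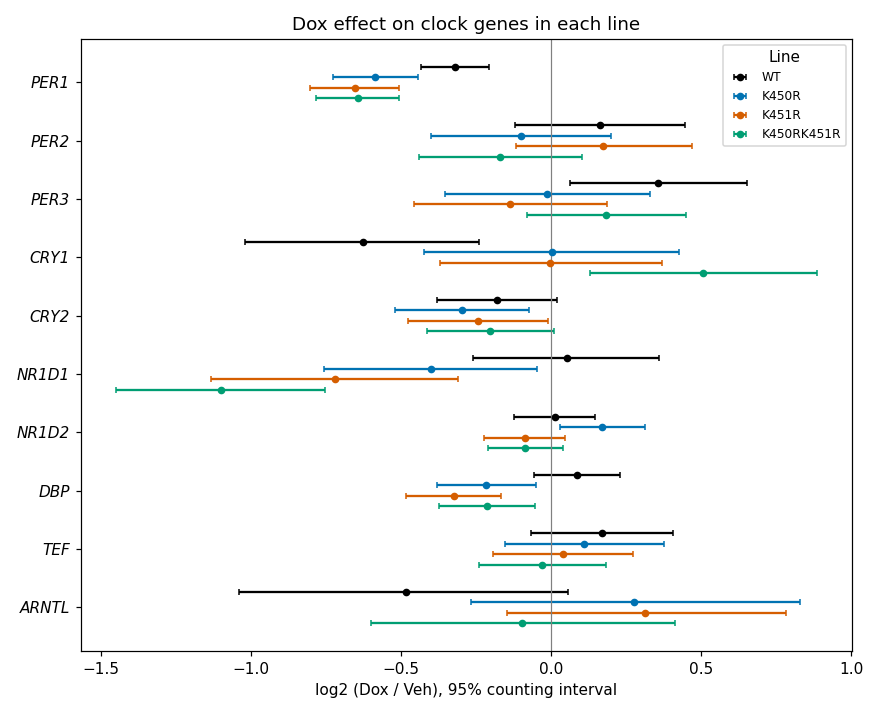
Log2 ratio of Dox to Veh (horizontal axis) for each of the 10 clock genes (vertical axis) in each of the 4 lines, with 95% counting intervals from the reads of 1 library per condition. For PER1 all 4 intervals lie below 0, and for NR1D1 and DBP the 3 mutant lines lie below 0 while WT does not.

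The mutant lines were compared with WT for the size of the Dox effect, as an interaction term in edgeR's quasi-likelihood fit, with p adjusted over all genes by Benjamini-Hochberg. WT is 1 pair of libraries and was assumed to vary like the mutants. PER1 was left out because the rule used its Dox effect in each line, and 0 of the other 9 genes had an adjusted p under 0.05 (0.163% of all genes had), with adjusted p of 0.544 to 0.990. At an unadjusted p under 0.05 there were 3 of 9, namely CRY1, NR1D1 and DBP, against 7.1% of all genes, and DESeq2 and limma-voom also called 0 of the 9. The Dox effect of NR1D1 differed by −0.80 on the log2 scale, lower in the mutants (SE 0.30, 95% interval −1.40 to −0.19, adjusted p = 0.544). That of DBP differed by −0.34 (SE 0.15, −0.65 to −0.03, adjusted p = 0.660) and that of CRY1 by 0.80 (SE 0.34, 0.12 to 1.48, adjusted p = 0.608). ARNTL had a difference of 0.65 with an interval of −0.25 to 1.55, which leaves its sign unsettled. The median difference was −0.17 over all 10 clock genes and −0.0017 over all genes. The first of these includes PER1 and is a description only.

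The other genes of the clock pathway were not used by the rule and were tested for Dox against Veh over the 4 lines. Their list was drawn up with earlier results of these data known, which limits what its shares can show. Of 27 listed, 24 passed the filter. RORB, BHLHE41 and FBXL21 did not. With edgeR and adjustment over all genes, 3 of 24 fell (1.51% of all genes fell) and 0 rose (0.603% of all genes rose), and 9 had an unadjusted p under 0.05 (14.4% of all genes had), of which 2 were higher. The 3 were BHLHE40 (DEC1), an E-box repressor that competes with ARNTL and CLOCK, WEE1, a cell-cycle kinase gene under E-box control, and KLF10, a zinc-finger repressor with circadian expression.

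BHLHE40 went from 940 to 1019 CPM in WT, from 830 to 574 in K450R, from 637 to 420 in K451R and from 678 to 406 in K450RK451R. Its log2 difference over the lines was −0.44 (SE 0.08, adjusted p = 0.0021 by edgeR), made of a higher level in WT and lower levels in the mutants. WEE1 was lower in each line, from 182 to 166 CPM in WT, 154 to 127 in K450R, 144 to 97.2 in K451R and 118 to 90.0 in K450RK451R (log2 −0.34, SE 0.07, edgeR adjusted p = 0.0029). KLF10 was at 102 CPM on both treatments in WT and went from 100 to 66.5, 76.8 to 55.4 and 72.3 to 41.5 CPM in K450R, K451R and K450RK451R (log2 −0.45, SE 0.09, edgeR adjusted p = 0.0038). The calls of BHLHE40 and KLF10 were lost with DESeq2 (adjusted p = 0.361 and 0.225) and without K450R (0.0569 and 0.0812), and that of WEE1 without K451R (0.0729).

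By role, 0 of 3 activators passed, with CLOCK the largest difference at 0.16 (adjusted p = 0.415), and 0 of 2 ROR receptors passed. Of the kinases, ligases and partners, some of which set the stability of PER and CRY proteins, 0 of 7 passed. By direction alone, 5 of the 24 were lower in each line (CIPC, CSNK1D, NAMPT, WEE1 and USP2), against 10.1% of all genes, and 3 higher in each, CLOCK among them, against 10.7%. Lower in the 3 mutants and higher in WT were 6 of 24 pathway genes, among them BHLHE40, KLF10 and NOCT, and 2 of the 10 clock genes (NR1D1 and DBP), against 7.98% of all genes.

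In the test of mutants against WT, 1 of 24 pathway genes had an adjusted p under 0.05, BHLHE40 (−0.74, SE 0.10, adjusted p = 0.0001), against 0.163% of all genes, and 5 of 24 had an unadjusted p under 0.05, against 7.1%. KLF10 had a difference of −0.63 with an edgeR adjusted p of 0.0895. It passed with limma-voom (0.0458), without K450R (0.0070) and without K451R (0.0270). In the other 4 settings it did not pass, among them without K450RK451R (0.142). The highest adjusted p of an alternative was 0.475. NOCT, a clock-controlled gene that encodes the phosphatase nocturnin, had −0.70 (adjusted p = 0.458), ARNTL2 −0.31 and TIMELESS −0.18, the largest differences of their role groups. The median over the 24 was −0.15, and −0.17 for the 10 clock genes with PER1 included.

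**Figure D3:**
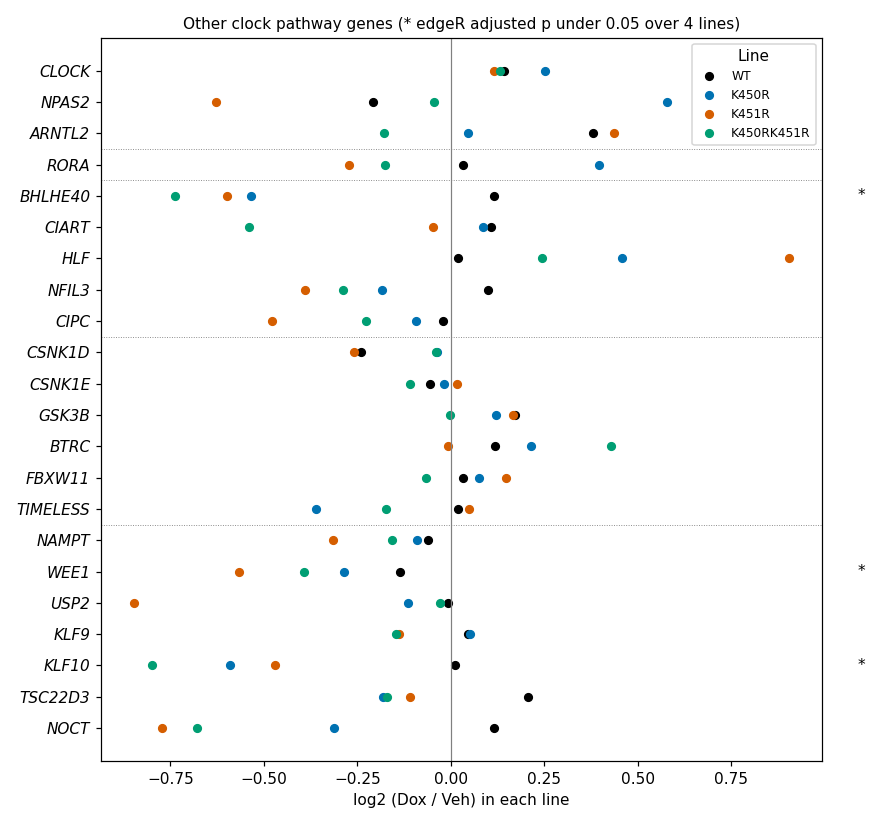
Log2 ratio of Dox to Veh (horizontal axis) in each of the 4 lines for 22 of the other clock pathway genes that passed the filter (vertical axis), in role groups separated by dotted lines, without error bars. Asterisks mark BHLHE40, WEE1 and KLF10, which had an edgeR adjusted p under 0.05 over the 4 lines. WT lies to the right of the 3 mutant lines for BHLHE40, KLF10 and NOCT.

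The rule that chose the genes names Dox values only, so the silencing of EHMT1 was tested for all of them. EHMT1 itself fell by 1.51 on the log2 scale (SE 0.11). Of the 10 clock genes, 0 had an edgeR adjusted p under 0.05 (0.131% of all 14532 genes had) and 0 an unadjusted p under 0.05 (9.55% of all genes), and DESeq2 and limma-voom called 0 as well. Adjusted p ran from 0.698 to 0.987. The log2 differences lay between −0.29 and 0.13 and the 95% intervals of the fold between 0.527 and 1.42, so a change of 2-fold in either direction lay outside the interval of each gene.

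PER1 was at 16.9 and 13.8 CPM in the siNTC samples and at 12.4 and 13.8 CPM in the siEHMT1 samples. The groups only just failed to overlap, and the log2 difference was −0.24 (SE 0.18, adjusted p = 0.706), a fold of 0.848 with an interval of 0.654 to 1.10. PER3 (16.2 and 15.2 against 12.9 and 14.4 CPM) and CRY1 (18.6 and 17.8 against 16.9 and 14.6 CPM) also did not overlap, which made 3 of 10 genes, against 39.7% of all genes.

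NR1D1 had the lowest CPM of the 10 genes, at 4.16 and 5.93 CPM in siNTC and 3.34 and 4.63 CPM in siEHMT1, with the widest interval of its log2 difference (−0.92 to 0.35). NR1D2 was at 40.7 and 44.3 against 41.2 and 34.4 CPM, DBP at 15.9 and 14.6 against 15.9 and 13.3, and ARNTL at 7.18 and 8.69 against 7.52 and 6.23. PER2 was at 15.9 and 12.8 against 15.1 and 16.4 CPM, CRY2 at 16.06 and 16.01 against 14.2 and 20.7, and TEF at 14.0 and 15.2 against 14.7 and 14.0. Means were lower in siEHMT1 for 8 genes and higher for PER2 and CRY2. For PER2, CRY2, DBP and TEF the sign turned when 1 sample was left out.

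**Figure D4:**
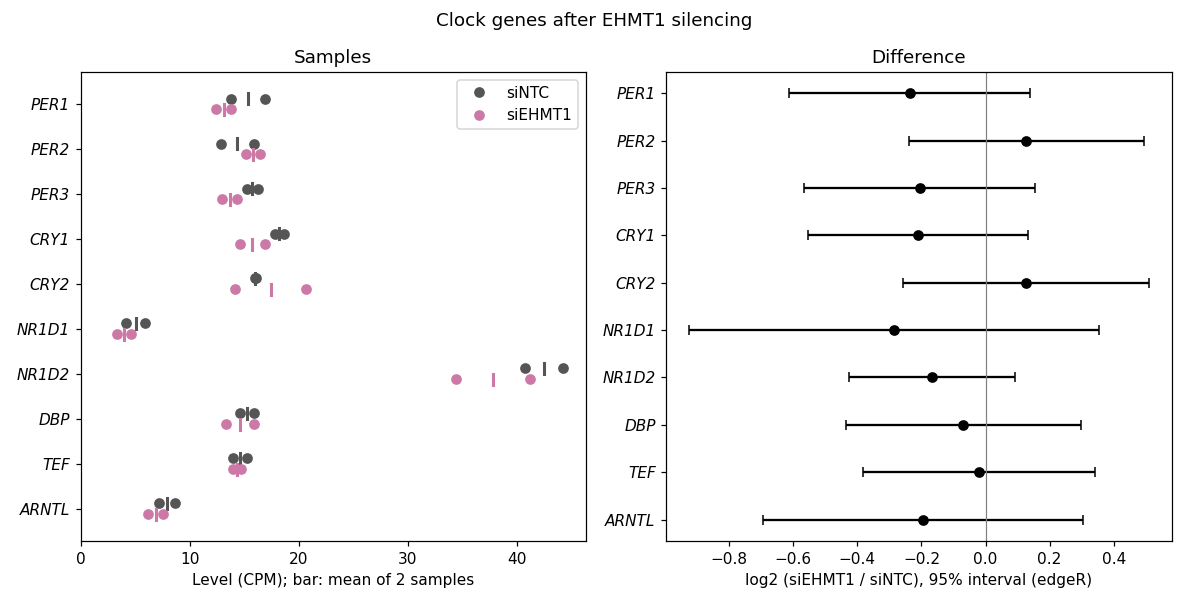
Left, level in CPM of each clock gene in the 2 siNTC and 2 siEHMT1 samples, with a bar at each mean. Right, log2 ratio of siEHMT1 to siNTC with its 95% interval from edgeR. Each of the 10 intervals includes 0.

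Of the 24 pathway genes tested after silencing, 0 had an adjusted p under 0.05 with edgeR, DESeq2 or limma-voom, and 4 had an unadjusted p under 0.05, against 9.55% of all genes. Of these, CLOCK, TIMELESS and NOCT were lower in siEHMT1 and TSC22D3 was higher (log2 0.31). CLOCK, the partner of ARNTL, was at 45.3 and 50.99 CPM in siNTC and 41.5 and 39.7 CPM in siEHMT1 (log2 −0.24, adjusted p = 0.519). The largest differences of 3 other role groups were −0.35 for RORA, −0.37 for HLF and −0.35 for NOCT. The medians were −0.18 over the 10 clock genes, −0.09 over the 24 and −0.0021 over all genes.

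Across the 10 conditions, 9 of the 10 clock genes had levels in the Veh lines that lay outside the range of the siNTC samples, ARNTL being the exception. The share of all genes with such separate ranges was not counted, so nothing is read from this number. With all 12 libraries scaled together, PER1 was at 13.1 to 16.1 CPM in siNTC and at 97.2 to 145 CPM in the 4 Veh libraries, a mean 7.88-fold higher. DBP was 5.09-fold, NR1D1 3.57-fold, CRY2 2.61-fold, NR1D2 2.32-fold and TEF 2.18-fold higher, while PER2 was 1.54-fold and PER3 1.22-fold higher. The factor was 0.923 for ARNTL and 0.706 for CRY1, the only gene of the 10 that was clearly lower in Veh, with ranges of 9.56 to 15.0 against 16.8 to 17.7 CPM. Of the 10 genes, 6 were more than 2-fold higher, against 13.6% of 15576 genes. The median log2 over all genes was 0.01. Of the pathway genes BHLHE40 had the largest fold, 24.1, and the mitochondrial ribosomal RNA MT-RNR2 took 20.7% to 25.5% of counts in the siRNA samples and 7.26% to 13.1% in the stable lines. The part of that difference in these folds was not tested, and transfection, cell line and experiment cannot be told apart, so no test was made. On this scale even the lowest Dox level of PER1 in the stable lines, 61.8 CPM, was above its siRNA samples.

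**Figure D5:**
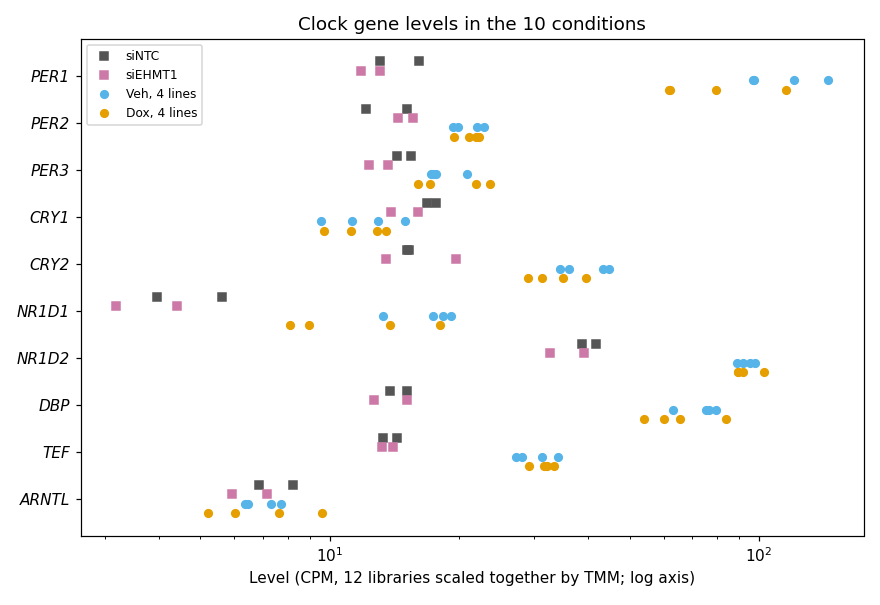
Level of each clock gene (vertical axis) in CPM on a log axis (horizontal axis), with all 12 libraries scaled together. Squares are the 2 siNTC and 2 siEHMT1 samples and circles the 4 Veh and 4 Dox libraries. The levels of CRY1 and of ARNTL mix between the experiments, while those of each other gene are separate, by a narrow gap for PER3.

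Genes whose level moved most like PER1 over the 8 stable-line conditions were ranked by the Pearson correlation of log2 CPM among 10807 genes. The points are Veh and Dox libraries of the same 4 lines, so the values describe these libraries and carry no p. The nearest were RELA, a subunit of NF-kB (r = 0.998), VEGFA, a vascular growth factor (0.991), ZFAND2A, a zinc-finger gene (0.991), EDN2, which encodes endothelin-2 (0.989), and AC007318.5 (0.984). RELA went from 167 to 142 CPM in WT, 146 to 109 in K450R, 125 to 95.5 in K451R and 125 to 91.7 in K450RK451R, so its ratios were smaller than those of PER1 in each line. EDN2 had log2 ratios of −0.63, −0.87 and −0.73 in the mutants and −0.23 in WT. After silencing of EHMT1 the edgeR adjusted p of these 5 genes was 0.737 to 0.954. Of the clock genes, CRY2 ranked 57, NR1D1 319 and DBP 323. The others ranked far lower: PER2 4647, CRY1 6176, PER3 6277, NR1D2 6961, ARNTL 7793 and TEF 9027, all but PER2 with a negative r. Of the pathway genes BHLHE40 ranked 41, WEE1 59, KLF10 86 and NOCT 204, while CLOCK ranked 9882 and HLF 10238, both with a negative r.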

How the data were processed

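RNA-seq of LNCaP cells was analysed from 20 samples. The authors deposited 2 tables of raw counts, whole numbers of reads per Ensembl gene without normalization. Per the labels and the study's methods, stranded total-RNA libraries were sequenced and the single-end reads were mapped to hg19. The submitters' processing notes name FastQC 0.11.9, STAR 2.7.2 and featureCounts 1.6.4. The annotation release and the strand setting of the counting are not given in the sources used here, so overlapping genes could share reads. An annotated gene overlaps 9 of the 10 clock genes, CRY2 being the exception, mostly on the opposite strand. On the same strand, ENSG00000263620 in PER1 had 0 counts in every column and RN7SKP151 in ARNTL at most 2.

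Counts were scaled by TMM, filtered with edgeR's filterByExpr, and tested with edgeR's quasi-likelihood method and Benjamini-Hochberg adjustment over all genes (R 4.3.3, edgeR 4.0.16), with limma 3.58.1 and DESeq2 1.42.0 as alternatives. The filter left 14532 genes in the siRNA samples and 14105 in the stable lines. The Dox fit had the line as a block. A ratio within a line has a 95% binomial counting interval, which covers counting error only, and a count of 3 or fewer was taken as the floor. Nothing in the labels says that siRNA samples came from separate cultures, so p-values measure the spread between these samples. Exon lengths and positions came from GENCODE release 44 on GRCh37 (55538 identifiers matched) and promoters from RefSeq on GRCh38.p14, in which ARNTL is listed as BMAL1. The procedures were tested on simulated counts with 2-fold changes and a fixed spread, so smaller changes and a larger spread were not covered. The genes and lists were chosen with earlier results of these data known. Named genes are the 10 clock genes, the pathway genes with an adjusted p under 0.05 or the largest difference of their role group, and the 5 genes most correlated with PER1. The values of 2 pathway genes are counted but not reported here.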

Additional observations from a re-analysis of the deposited data

Results flagged for a closer look

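PER3 in the Veh libraries was flagged because 1 line stood apart from the others: K450RK451R was at 20.4 CPM and the other 3 lines at 16.7 to 17.3 CPM, and the gap was 0.850 of the whole range. Chance flags about 1 in 20 such groups of 4. NR1D1 and DBP were flagged because the log2 ratio of Dox to Veh lay above 0 in WT and below 0 in the 3 mutant lines. The counting interval of WT includes 0 for both genes. The mean log2 ratio of the mutants minus that of WT was −0.79 for NR1D1 and −0.34 for DBP, and in the interaction test neither passed an adjusted p under 0.05. BHLHE40 was flagged because its Dox effect in the mutants differed from that in WT by −0.74 on the log2 scale in that test, with WT as 1 pair of libraries.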

How the results depend on the processing

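After silencing of EHMT1, 0 of the clock and pathway genes were called under every alternative, the replicate block and each sample left out included. The count over all genes was 19, and it was 12 without the filter on low counts and 118 with the replicate block. The block is only a shared number, since same-numbered samples did not deviate together (Pearson −0.00226 and Spearman 0.0293 over 14532 genes). It was 38 to 110 with 1 sample left out, where the lone sample was assumed to vary like the other group. For Dox, the 3 pathway genes called became 1 with DESeq2 and 1 to 5 with 1 line left out (5 without WT, 1 without K450R), and the 298 genes called over all genes became 137 with DESeq2 and 114 to 501 (501 without WT, 122 without K450R, 114 without K451R). For the mutants against WT, the 1 pathway gene called became 2 with limma-voom and 1 to 2 with 1 line left out, and the 23 genes called over all genes became 15 without the filter, 43 with limma-voom and 33 to 101 (101 without K450R). The causes were not tested. With 1 sample left out, the log2 difference after silencing turned sign for PER2 (−0.0059 to 0.30), CRY2 (−0.17 to 0.36), DBP (−0.20 to 0.057) and TEF (−0.087 to 0.035, and 0.017 without siEHMT1 replicate 2), and with 1 line left out so did the NR1D2 difference of mutants against WT (−0.10 to 0.029, and 0.028 without K451R). Of 223 values of single genes from a test, 208 kept their direction and their side of the threshold, and another 90 values had no test. With 2 samples per group and 1 library per stable-line condition, the small counts of ARNTL and NR1D1 limited what could be seen.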
